A study of Mus musculus with 8 samples.

Results

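The cytosolic ribosome of mouse cells is built from ribosomal RNA and a fixed set of ribosomal proteins, each encoded by its own gene. Transcripts of these genes were compared between ureteric bud cells lacking Dot1 and wild-type ureteric bud cells. A gene was taken where a probe named a RefSeq transcript with an Rpl or Rps symbol, leaving out the S6 kinases and symbols marked as numbered pseudogenes. The symbol rule took 100 entries of the RefSeq table (GRCm38.p6). Of these, 88 had a probe on the array, 53 of the large and 35 of the small subunit, read by 176 probes in 185 spots. Of the 12 without a probe, 10 were pseudogenes and the others were Rpl37 and Rps27rt. After the filter on dim probes 85 genes were tested, 50 large and 35 small, out of 23343 genes in all.

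Ribosomal proteins of the large subunit surround the site of peptide bond formation and the exit tunnel, and those of the small subunit surround the site where mRNA is decoded. Their mRNAs are among the most abundant of dividing cells. Many begin with a run of pyrimidines, the 5′ terminal oligopyrimidine tract, through which mTOR signalling controls their translation. When the supply of single proteins fails, the proteins encoded by Rpl5 and Rpl11 bind MDM2 and stabilise p53, and several ribosomal protein genes are mutated in human Diamond-Blackfan anaemia. Some symbols that the rule takes are not core components, and they were counted with the subunit that their symbol names. Rps19bp1 encodes a protein that binds the Rps19 product, Rps23rg1 and Rpl37rt are named as copies of other genes, and Rps4l is a transcribed pseudogene in the RefSeq table.

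The KO samples were GFP-positive ureteric bud cells from kidneys of C57BL/6 mice at postnatal day 0 in which Dot1 had been deleted in cells expressing Hoxb7 (4 samples). The WT samples were GFP-positive ureteric bud cells sorted from wildtype C57BL/6 kidneys at the same age (4 samples). The ureteric bud is the branching epithelium that forms the collecting ducts, and Dot1l encodes a histone methyltransferase. The sources used here do not give the Cre and GFP alleles of either group, the number of animals behind a sample, or whether animals were pooled. Each sample was labelled with Cy5 from 0.5 µg of total RNA and read on 1 array against Cy3-labelled RNA of WT replicate 3. Every value is a log2 ratio to that RNA, and WT 3 was set against itself. These are bulk samples, in which fewer cells of a type and less RNA per cell cannot be told apart.

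Upstream windows show what these genes share in sequence. RefSeq windows (GRCm38.p6, 250 bases before to 50 after the annotated start) were matched for 64 of the 85 genes. The letters CGGAAG, the core read by ETS family factors such as GABPA, were found on either strand in 42 of 64 genes (65.6%), against 18.8% of 27025 genes with a window. They lay in 20 of 26 small subunit genes (76.9%) and in 22 of 38 large subunit genes (57.9%). The YY1 letters AAGATGGC, on either strand, were in 6 of 64 (9.38%), against 3.19% of all genes. The letters TATAA, on either strand, were about as frequent in these genes (28.1%) as in all genes (28.0%). A C followed by at least 5 more pyrimidines, searched on the transcribed strand from 5 bases before to 10 after the start, was present in 28 of 64 (43.8%), against 11.9% of all genes. Matches of different motifs can overlap and were counted separately. A gene with several windows counted once if any of them held the letters, and a match is a description of the window only.

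The 250 bases before the start are shown for the 2 genes with the most positive and the 2 with the most negative difference between KO and WT among ribosomal proteins with a single window, to set the members at both ends side by side. Capitals mark CGGAAG or its reverse complement. Rpl4 lies on the plus strand at chr9:64173137-64173386, Rpl11 on the minus strand at chr4:136053394-136053643, Rps15 on the plus strand at chr10:80292181-80292430 and Rps12 on the minus strand at chr10:23787210-23787459 (GRCm38.p6). Each is written 5′ to 3′ on the strand of its gene.
Rpl4: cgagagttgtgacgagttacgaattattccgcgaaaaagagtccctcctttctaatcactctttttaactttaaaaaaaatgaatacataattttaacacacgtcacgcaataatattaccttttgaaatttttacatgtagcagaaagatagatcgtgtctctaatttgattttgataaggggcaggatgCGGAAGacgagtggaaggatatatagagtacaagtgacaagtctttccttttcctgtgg
Rpl11: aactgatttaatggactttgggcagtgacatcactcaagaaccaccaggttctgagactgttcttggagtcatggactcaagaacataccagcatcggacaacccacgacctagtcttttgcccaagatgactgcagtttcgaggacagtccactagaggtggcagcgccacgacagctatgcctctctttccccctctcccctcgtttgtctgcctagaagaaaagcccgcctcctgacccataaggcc
Rps15: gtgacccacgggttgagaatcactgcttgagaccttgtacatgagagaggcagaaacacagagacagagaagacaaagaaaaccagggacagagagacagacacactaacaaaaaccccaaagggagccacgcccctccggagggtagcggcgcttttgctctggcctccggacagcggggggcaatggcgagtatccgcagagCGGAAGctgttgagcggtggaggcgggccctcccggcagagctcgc
Rps12: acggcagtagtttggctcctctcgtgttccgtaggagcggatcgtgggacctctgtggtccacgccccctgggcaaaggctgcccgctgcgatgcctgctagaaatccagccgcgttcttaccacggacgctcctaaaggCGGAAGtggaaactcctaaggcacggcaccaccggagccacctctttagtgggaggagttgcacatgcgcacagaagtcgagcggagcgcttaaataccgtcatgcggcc
Rpl4, at the positive end, and Rps15 and Rps12, at the negative end, each hold 1 match, and Rpl11 holds none.

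Ribosomal protein probes were among the brightest on the array. Of the 317 brightest tested probes, the top 1% of 31667, 71 were probes of these genes. Median Cy5 signal over their spots was 83285, 109986, 64537 and 65547 on KO 1 to KO 4, and 100209, 85960, 90215 and 87949 on WT 1 to WT 4. None of their spots was saturated. Their spots held 9.86%, 10.75%, 7.06% and 9.11% of the net Cy5 signal on KO 1 to KO 4, and 10.26%, 11.30%, 10.19% and 10.64% on WT 1 to WT 4. In Cy3, where all arrays carried the same RNA, they held 9.90%, 8.78%, 9.33% and 10.43% on the KO arrays, and between 9.10% and 9.35% on the WT arrays. The Cy5 share was lowest on KO 3, the array with the highest median signal over all spots, at 636 against 93.5 to 137 on the others. On KO 3 the scanner software marked 7665 spots as outlying, 4 of them spots of these genes.

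The 8 arrays shared 1 slide, with the KO arrays in one row and the WT arrays in another, so the effect of row and that of genotype cannot be told apart. Dot1l (NM_199322) had log2 ratios of 0.35, 0.03, -0.04 and 0.30 on KO 1 to KO 4, and 0.03, -0.05, -0.11 and 0.07 on WT 1 to WT 4. The groups overlapped, and its log2 difference of 0.18 ± 0.11 (SE; limma adjusted p = 0.342) came from 1 probe. The labels do not place that probe relative to the deletion, so it does not check the genotype. All 15 ureteric bud markers were well above background on all 8 arrays. So were all or most markers of the other cell types that the sort could hold. These were 7 of 9 erythroid, 10 of 10 macrophage and leukocyte, 9 of 9 endothelial and 8 of 8 nephron progenitor genes. The others were 10 of 11 stromal and 10 of 10 tubule and podocyte genes. Without the filter on dim probes there were 37016 genes, and 20340 genes had a probe well above background on all 8 arrays.

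Between KO and WT no ribosomal protein gene passed the test. Of 85 genes, 0 had an adjusted p under 0.05 (limma, Benjamini-Hochberg over all 23343 genes), where 2 of all genes, or 0.00857%, did. The smallest adjusted p of a member was 0.112, for Rpl7. At an unadjusted p under 0.05, 6 were higher in KO and 4 lower, out of 85, against 10.5% of all genes higher and 13.6% lower. Both counts were below those background shares. Log2 differences ran from -0.54 (Rps21) to 0.41 (Rpl7), with a median of -0.04 against -0.02 over all genes. Values were above 0 for 29 members (34.1%) and below 0 for 56, while 46.0% of all genes were above 0.

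After loess, which removes the dye trend with intensity within each array, the 95% interval of the difference lay within 1.5-fold either way for 81 of 85 members (95.3%), against 71.5% of all genes tested. The exceptions were Rpl7, Rps21, Rps12 and Rps2. The median standard error was 0.10 for the members and 0.12 for all genes. Of the 85 members, 6 had KO and WT arrays that did not overlap with KO higher (7.06%), and 0 with KO lower, where 3.88% and 7.68% of 21001 genes with values on all arrays were so placed. Without KO 2 the members apart numbered 6 higher and 20 lower, where 14.3% and 19.4% of all genes with values on the arrays used were so placed. Without KO 3 they numbered 11, all higher, where 6.44% of all genes were. With each array centred on its median and no loess, 55 members were apart with KO lower and 0 with KO higher. In that fit 25.1% of all genes with values on all arrays were apart with KO lower.

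**Figure D1:**
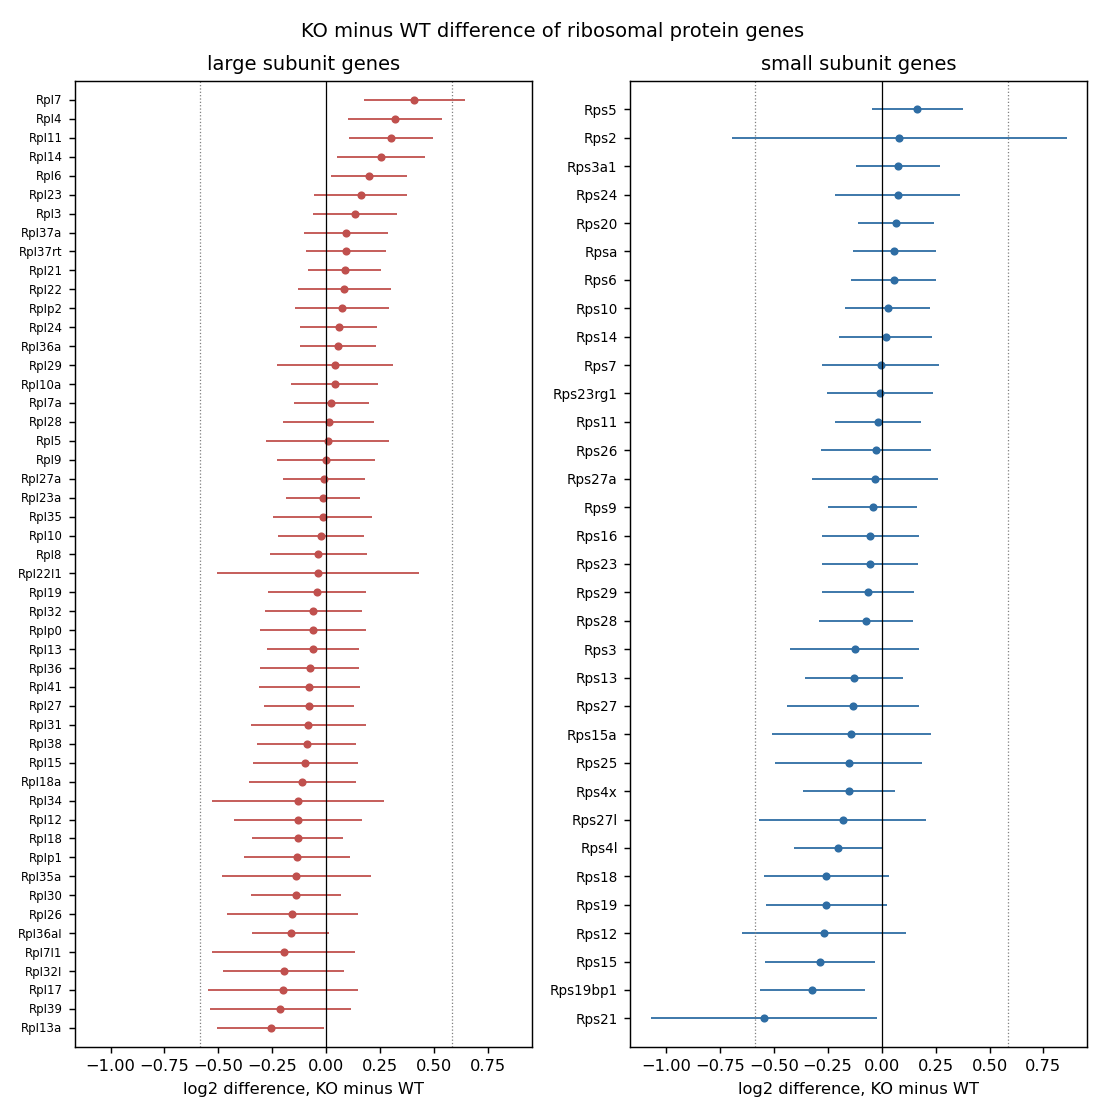
Log2 difference KO minus WT (x axis) of tested ribosomal protein genes (rows), for the large subunit on the left and the small subunit on the right. Points are limma estimates from 4 KO and 4 WT arrays, lines are 95% intervals and dotted lines mark 1.5-fold. Most genes lie close to 0, with Rpl7 at 0.41 and Rps21 at -0.54 at the ends.

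Large and small subunit genes gave similar medians. The 50 large subunit genes had a median log2 difference of -0.04, with 19 above and 31 below 0, and the 35 small subunit genes of -0.05, with 10 above and 25 below. To compare arrays, each gene on a KO array was set against its mean over the 4 WT arrays. On a WT array it was set against its mean over the other WT arrays. The median was then taken over the genes of a subunit. Large subunit medians were -0.01, 0.12, -0.11 and -0.11 on KO 1 to KO 4, and 0.02, 0.06, -0.09 and 0.03 on WT 1 to WT 4. Small subunit medians were -0.02, 0.14, -0.24 and -0.15 on KO 1 to KO 4, and -0.00256, 0.07, -0.07 and -0.01 on WT 1 to WT 4. For both subunits the groups overlapped, with KO 2 above and KO 3 and KO 4 below every WT array. Without KO 3 the median differences turned to 5.52e-04 (large) and 0.0048 (small).

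Averaged over arrays, the large subunit median was -0.03 ± 0.11 in KO and 0.01 ± 0.06 in WT (SD, n = 4 each). The small subunit median was -0.07 ± 0.17 in KO and -0.00304 ± 0.06 in WT (SD, n = 4 each). The large minus small difference within an array was 0.01, -0.02, 0.13 and 0.04 on KO 1 to KO 4, and 0.03, -0.01, -0.01 and 0.04 on WT 1 to WT 4. It averaged 0.04 ± 0.06 in KO and 0.01 ± 0.03 in WT (SD, n = 4 each), so the subunits differed by less than the spread between arrays, with KO 3 as the array furthest out.

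**Figure D2:**
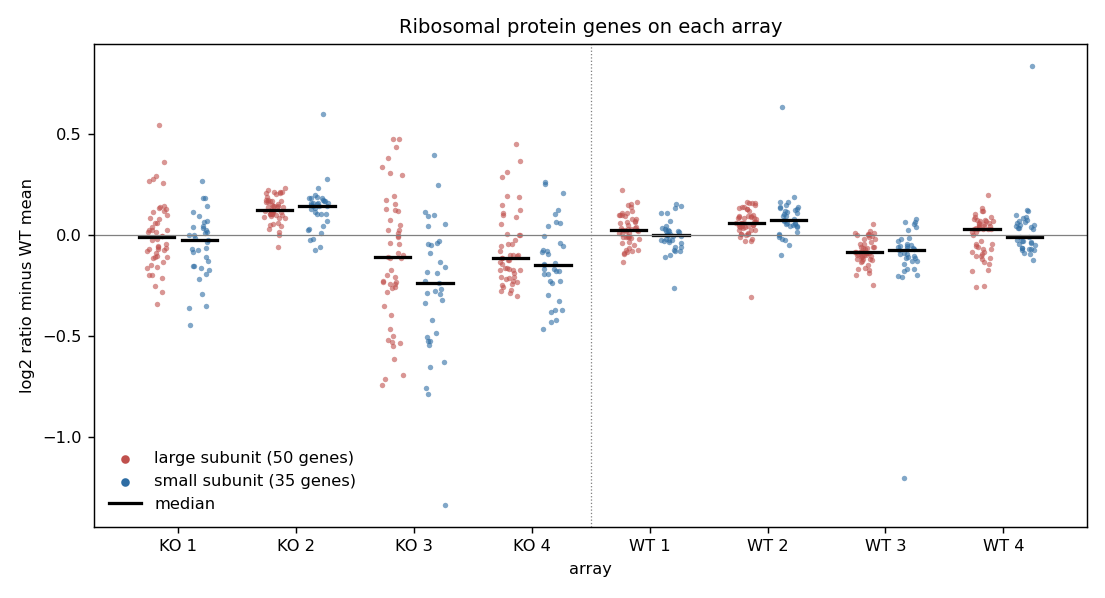
Log2 ratio of each ribosomal protein gene minus its mean over the 4 WT arrays (y axis), by array (x axis). For a WT array, the mean was taken over the other WT arrays. The 50 large subunit genes are in red and the 35 small subunit genes in blue, with a black bar at each median. The genes lie together on KO 2, 0.12 (large) and 0.14 (small) above the WT mean, and are spread widest on KO 3.

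The spread among the members differed widely between the KO arrays. The interquartile range over the 85 genes was 0.18, 0.07, 0.44 and 0.22 on KO 1 to KO 4, and between 0.08 and 0.13 on the WT arrays. KO 2 had the narrowest range of all 8 arrays, and KO 1, KO 3 and KO 4 had wider ranges than every WT array. Over all genes the interquartile range was 0.41, 0.21, 0.44 and 0.45 on KO 1 to KO 4, and 0.20 to 0.22 on the WT arrays. KO 1, KO 3 and KO 4 were therefore wider than the WT arrays for all genes too. For all genes they were close to each other, while for the members KO 3 was far wider than KO 1 and KO 4. KO 2 was the narrowest array for the members but not for all genes.

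KO 3 held most of the low values. On it 18 of 85 members, 9 of each subunit, lay more than 0.5 below their WT mean, while 12.4% of all genes did, and no member did so on another KO array. Rps21 was lowest at -1.33, followed by Rps12 at -0.78, Rps27l at -0.76, Rpl22l1 at -0.74 and Rpl34 at -0.71. These 5 genes lay at -0.35, -0.16, -0.02, 0.27 and 0.08 on KO 1, in the same order, so that of the 5 only Rps21 and Rps12 were more than 0.1 below WT there. Genes outside the naming rule in this comparison, such as Rpl34, were chosen after their values were seen.

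The 6 genes whose arrays did not overlap were all higher in KO after loess, though all lower with median centring alone, and 5 of them belong to the large subunit. Rpl7 (NM_011291), which encodes a protein of the large subunit, had log2 ratios of 0.68, 0.30, 0.61 and 0.59 on KO 1 to KO 4, and 0.18, 0.25, 0.06 and 0.05 on WT 1 to WT 4. KO 2 was the lowest of the KO arrays and still above every WT array. The log2 difference was 0.41 ± 0.10 (SE; limma adjusted p = 0.112), a 1.33-fold higher ratio in KO. All 4 tested probes of Rpl7 were above 0, between 0.14 and 0.41.

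Rpl4 (NM_024212) encodes a protein with a long extension into the wall of the exit tunnel. It had log2 ratios of 0.06, -0.08, 0.25 and 0.14 on KO 1 to KO 4, and -0.14, -0.17, -0.35 and -0.25 on WT 1 to WT 4. The log2 difference was 0.32 ± 0.10 (SE; limma adjusted p = 0.122), from 1 tested probe. Rpl14 (NM_025974), another large subunit gene, had 0.11, -0.11, 0.08 and -0.06 on KO 1 to KO 4, and -0.14, -0.22, -0.26 and -0.38 on WT 1 to WT 4. Its difference was 0.25 ± 0.09 (SE; limma adjusted p = 0.147), but its other tested probe gave -0.23, so the direction depended on the probe. Rpl6, the last of the large subunit genes in this group, was outside the naming rule and chosen after its values were seen. Its log2 difference was 0.20, and its other 3 probes gave 0.07 to 0.11.

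The genes whose products signal to MDM2 gave unlike values. Rpl11 (NM_025919) had log2 ratios of 0.03, -0.02, 0.20 and 0.05 on KO 1 to KO 4, and -0.16, -0.19, -0.37 and -0.23 on WT 1 to WT 4. The groups did not overlap, and the difference was 0.30 ± 0.09 (SE; limma adjusted p = 0.117), with its other probes at 0.11 and 0.13. Rpl5 (NM_016980), its partner in the particle with 5S rRNA, had 0.28, 0.25, -0.21 and 0.26 on KO 1 to KO 4, and 0.21, 0.20, -0.05 and 0.18 on WT 1 to WT 4. Apart from KO 3 and WT 3 its values lay between 0.18 and 0.28, and the difference was 0.01 ± 0.13 (SE; limma adjusted p = 0.982).

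**Figure D3:**
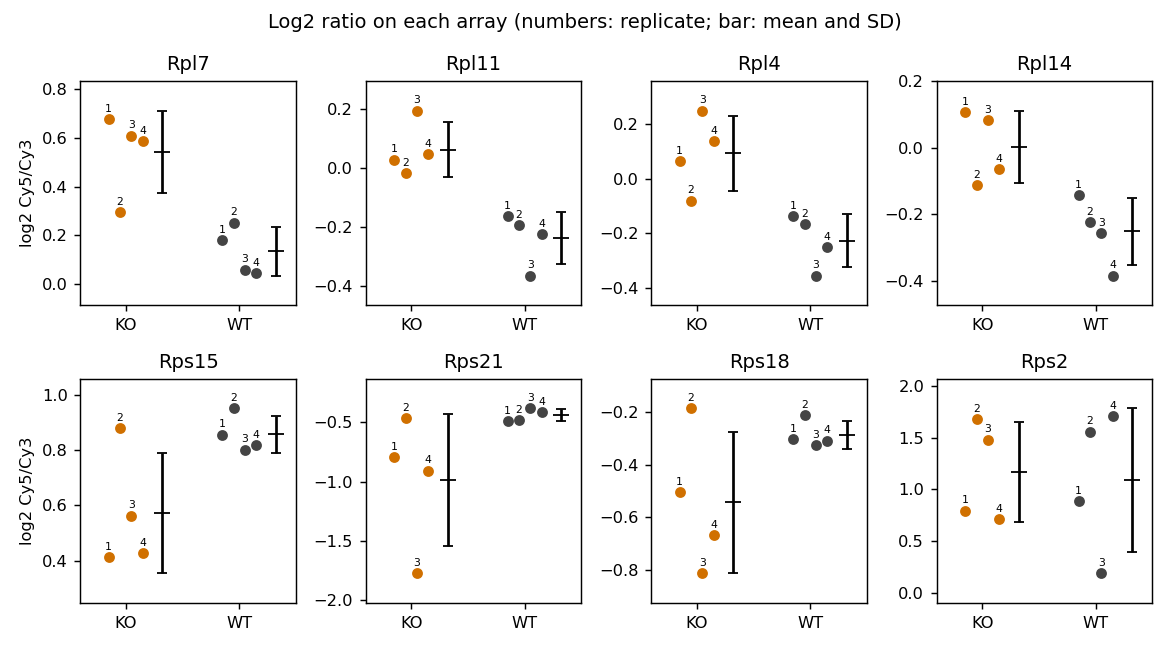
Log2 ratio of Cy5 to Cy3 (y axis) of 8 ribosomal protein genes on each KO and WT array, numbered by replicate, with the mean and SD of each group (n = 4) beside the points. Rpl7, Rpl11, Rpl4 and Rpl14 do not overlap between groups and are higher in KO after loess, though not with median centring. For Rps15, Rps21 and Rps18, KO 2 lies among the WT arrays or close to them, and Rps2 is spread widely in both groups.

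For the members with the most negative differences, KO 2 lay in the WT range or close to it. Rps21 (NM_025587), which encodes a small subunit protein, had log2 ratios of -0.79, -0.46, -1.77 and -0.91 on KO 1 to KO 4, and -0.49, -0.48, -0.38 and -0.42 on WT 1 to WT 4. KO 2 lay inside the WT range and KO 3 far below all other arrays. The log2 difference was -0.54 ± 0.23 (SE; limma adjusted p = 0.196), from 1 tested probe.

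Rps15 (NM_009091), whose product reaches towards the decoding site, had 0.41, 0.88, 0.56 and 0.43 on KO 1 to KO 4, and 0.85, 0.95, 0.80 and 0.82 on WT 1 to WT 4. Its difference was -0.29 ± 0.11 (SE; limma adjusted p = 0.172), with its other probe at -0.30, so both probes gave the same size. Rps19bp1 (NM_175109), which in humans binds the RPS19 protein and is no part of the ribosome, had -0.34, 0.01, -0.46 and -0.40 on KO 1 to KO 4, and 0.02, 0.02, 0.07 and -0.01 on WT 1 to WT 4. Again KO 2 alone lay with WT, and the difference was -0.32 ± 0.11 (SE; limma adjusted p = 0.137). Rps12 (NM_011295) had a difference of -0.27 ± 0.17 (SE), with KO values between -0.66 and 0.23 and WT values between -0.03 and 0.23.

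In the large subunit the most negative member was Rpl13a (NM_009438), whose product also silences inflammatory mRNAs in human myeloid cells. It had log2 ratios of -0.24, 0.03, -0.49 and -0.27 on KO 1 to KO 4, and -0.03, 0.06, -0.03 and 0.07 on WT 1 to WT 4. The difference was -0.26 ± 0.11 (SE; limma adjusted p = 0.196), and its other probes gave -0.20 and -0.16. Rpl39, Rpl17 and Rpl32l followed with differences of -0.21, -0.20 and -0.20. The 7 tested probes of Rpl17, whose product sits at the rim of the exit tunnel, lay between -0.29 and -0.01.

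Rps2 (NM_008503), a small subunit gene, was the member with the least certain difference. It had log2 ratios of 0.79, 1.68, 1.48 and 0.72 on KO 1 to KO 4, and 0.89, 1.56, 0.19 and 1.71 on WT 1 to WT 4. WT 3, the array on which the same RNA lay in both channels, was the lowest of all 8. The difference was 0.08 ± 0.35 (SE; limma adjusted p = 0.906), while a second probe of Rps2 gave 0.12 ± 0.09 (SE).

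The other genes chosen by role had KO and WT groups that overlapped. The stalk that recruits elongation factors is formed by the products of Rplp0, Rplp1 and Rplp2, which had log2 differences of -0.06 ± 0.11, -0.13 ± 0.11 and 0.07 ± 0.10 (SE). Rplp1 was at 0.15 on KO 2, against -0.29 to -0.21 on the other KO arrays and -0.11 to 0.06 on the WT arrays. Rpl38 (NM_001048057), needed in mouse embryos for translation of a set of Hox mRNAs, had 0.39, 0.56, 0.26 and 0.29 on KO 1 to KO 4, and 0.53, 0.56, 0.48 and 0.27 on WT 1 to WT 4. Its difference was -0.09 ± 0.10 (SE; limma adjusted p = 0.617), with a 95% interval from -0.32 to 0.14.

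Rps6, whose product is phosphorylated by the S6 kinases, had a difference of 0.06 ± 0.09 (SE), with a 95% interval from -0.14 to 0.25. Its other probes gave -0.07 and -0.03. Rpsa, also known as the laminin receptor gene, likewise had 0.06 ± 0.09 (SE), with other probes between -0.17 and -0.03. Among genes chosen because they are mutated in human Diamond-Blackfan anaemia, Rps19 had -0.26 ± 0.12, Rpl35a -0.14 ± 0.15, Rps26 -0.03 ± 0.11 and Rps24 0.07 ± 0.13 (SE). They are not all the genes mutated in it. The other probes of Rps24 gave -0.03 and -0.26, so its direction depended on the probe. Rps19 (NM_023133) had log2 ratios of 0.26, 0.46, -0.13 and 0.04 on KO 1 to KO 4, and 0.36, 0.46, 0.46 and 0.39 on WT 1 to WT 4, so KO 2 again lay with WT. Rpl35a gave -0.53 at its second probe, against -0.14 at the brighter one.

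Several ribosomal proteins have a paralogue encoded by a gene of its own. Rpl10l, Rpl39l and Rpl3l, in mice known from testis (Rpl10l and Rpl39l) and from muscle (Rpl3l), were not tested. They were well above background on at most 3, 0 and 2 KO arrays, and on no WT array. Of all spots, 59.1%, 68.9%, 95.2% and 61.5% were well above background on KO 1 to KO 4, and 52.4% to 56.2% on WT. More spots of any kind therefore passed on the KO arrays, and Rpl3l was dim, with a Cy5 signal of at most 217. The paralogues Rpl7l1, Rpl36al, Rps27l, Rps4l (the transcribed pseudogene) and Rpl22l1 had differences of -0.20, -0.17, -0.18, -0.20 and -0.04. Their partners Rpl7, Rpl36a, Rps27, Rps4x and Rpl22 had 0.41, 0.05, -0.13, -0.15 and 0.08. Rpl22l1, which is repressed by the Rpl22 protein in mice, was at -1.11 on KO 3, against -0.37 to -0.06 on the other KO arrays and -0.49 to -0.31 on WT. The partners of the untested paralogues, Rpl3, Rpl10 and Rpl39, had 0.13, -0.02 and -0.21. None of the 5 tested pairs had a member that passed the test.

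Different probes of a gene gave a measure of how far a difference belongs to the gene. Among 171 tested probes of the members 0 were called by limma, where 2 of all 31667 probes were. For 34 genes 1 probe was tested and for 51 genes at least 2. Of these 51, all probes were above 0 for 5 genes and below 0 for 28, and for 18 the probes lay on both sides. The median range between probes of a gene was 0.13. It is not comparable with the median standard error of 0.10, which measures the spread between arrays at 1 probe. Probes of these genes can also read near-identical copies, which are many for ribosomal proteins.

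**Figure D4:**
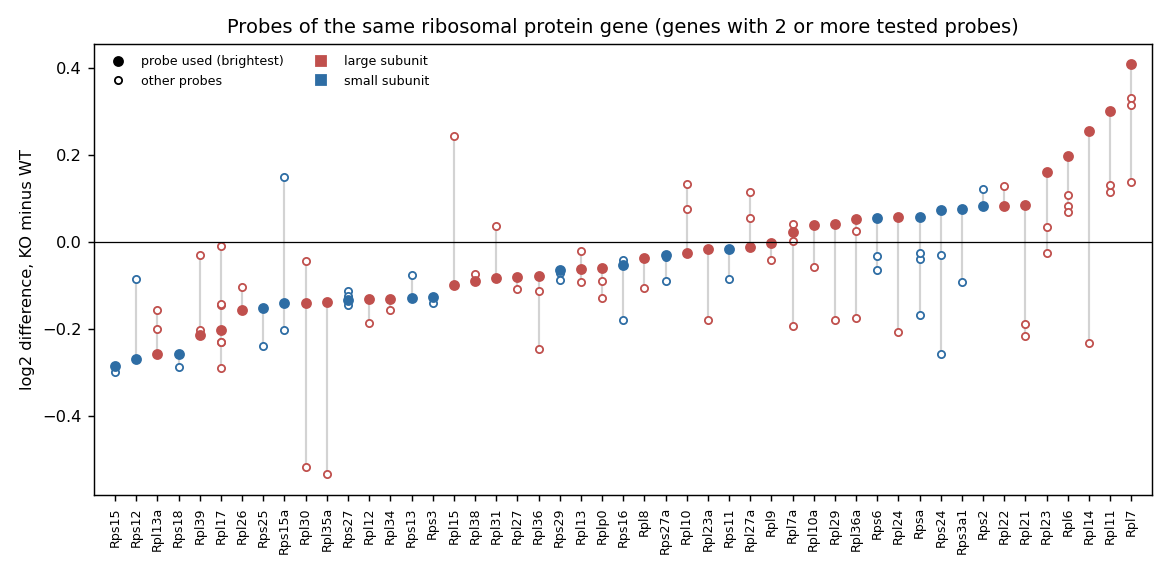
Log2 difference KO minus WT (y axis) at each tested probe of ribosomal protein genes with at least 2 tested probes (x axis), with the probe used filled and the others open, red for the large and blue for the small subunit. All probes of Rpl7, Rpl11 and Rpl6 lie above 0, while Rpl14 has a probe on each side.

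One array decided how many members were called. With KO 2 left out, 10 of them had an adjusted p under 0.05 in limma. Of these, 3 were higher in KO after loess (Rpl7, Rpl4 and Rpl11, all large subunit) and 7 lower. The lower ones were Rpl13a and Rpl39 of the large subunit, Rps15, Rps18, Rps19 and Rps21 of the small, and Rps19bp1, no part of the ribosome. In the same fit 10.0% of all genes were called higher and 11.2% lower, so the members' counts of 3 and 7 of 85 were not above the background. Rpl7 had a difference of 0.49 ± 0.09 (SE; limma adjusted p = 0.00695) and Rps15 of -0.39 ± 0.08 (SE; limma adjusted p = 0.0140). Rps18 (NM_011296), chosen after its values were seen, had -0.38 ± 0.10 (SE; limma adjusted p = 0.0250).

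Rps18 had log2 ratios of -0.50, -0.18, -0.81 and -0.67 on KO 1 to KO 4, and -0.30, -0.21, -0.33 and -0.31 on WT 1 to WT 4, with KO 2 above all others. With both KO 2 and KO 3 left out, a comparison added after the data were seen, 2 members were called higher (Rpl7 and Rpl4) and 5 lower (Rpl13a, Rps15, Rps18, Rps19bp1 and Rps21). Of all genes 13.5% were then called higher and 10.1% lower. No small subunit gene was called higher in either fit. With array weights, 5 members were called, Rpl7, Rpl4 and Rpl11 higher and Rps15 and Rps19bp1 lower, among 4353 genes in all. In that fit 2307 of 23343 genes were called higher and 2046 lower. The members' counts of 3 and 2 of 85 were below those shares.

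The level of the whole group depended on how dye ratios were normalised. With each array centred on its median and no loess, the median log2 difference was -0.90 for large and -0.91 for small subunit genes, and -0.30 for all genes. Relative to that shift the members lay at -0.61 and -0.62, and 0 of 85 were above 0. Limma called 0 genes in this fit, but 55 members had KO arrays below all WT arrays, against 25.1% of all genes with values on all arrays. Set against the WT mean, the members' median was -0.52, -0.11, -1.999 and -0.92 on KO 1 to KO 4, and 0.10, -0.02, -0.10 and 0.03 on WT 1 to WT 4. The median of all genes was -0.11, -0.15, -0.88 and -0.21 on KO 1 to KO 4, and between -0.08 and 0.08 on the WT arrays. KO 2 lay just below the WT arrays for the members and KO 3 furthest down.

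Rpl7, Rpl11 and Rpl4, the genes called higher without KO 2, had differences of -0.47, -0.63 and -0.43 with median centring, so that scaling turned their direction. Leaving the members' own probes out of the loess curve changed little, with medians of -0.04 (large) and -0.06 (small). The scanner software's own ratio gave -0.06 and -0.07. With Cy5 alone and quantile normalisation the medians were -0.08 and -0.09, above the -0.18 of all genes. Which of these scales follows the RNA content of the cells was not tested.

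**Figure D5:**
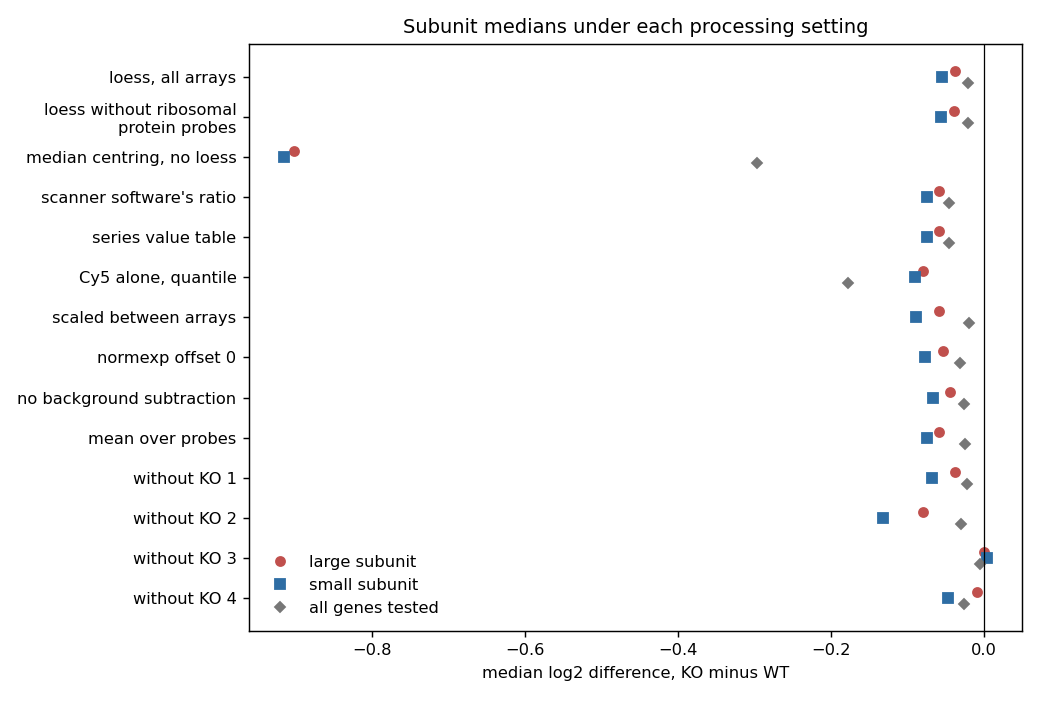
Median log2 difference KO minus WT (x axis) of large subunit genes (red circles), small subunit genes (blue squares) and all genes tested (grey diamonds) under each processing setting (rows). Median centring without loess puts the subunits at -0.90 and -0.91 and all genes at -0.30, while the other settings shown keep the subunits between -0.13 and 0.0048.

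Genes that work with ribosomal proteins were read from the same fit, and none of them was called. Of 3 measured ribosomal proteins outside the symbol rule, Rack1 (NM_008143) had KO arrays between 0.11 and 0.25 and WT arrays between -0.16 and 0.05. It did not overlap between groups, with a difference of 0.21 ± 0.08 (SE; limma adjusted p = 0.164), while Fau had -0.04. Among 14 translation factors and other genes with terminal oligopyrimidine mRNAs the median was 0.08, with 10 above 0. At an unadjusted p under 0.05, 1 was higher and 0 lower, against 10.5% and 13.6% of all genes. That gene was Tpt1 (NM_009429), which encodes the translationally controlled tumour protein. It had log2 ratios of 0.35, 0.19, 0.34 and 0.32 on KO 1 to KO 4, and 0.04, 0.07, -0.03 and 0.03 on WT 1 to WT 4. Its 3 probes gave 0.22 to 0.30, and limma's adjusted p was 0.115. Eif4b had -0.27 and Eif3h 0.15.

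Ribosome assembly genes lay on both sides of 0. Of 29 tested biogenesis genes 12 were above 0 and 17 below, with a median of -0.10, and at an unadjusted p under 0.05 there was 1 higher and 7 lower, against 10.5% and 13.6% of all genes. Nol6, Rrp9 and Eif6, which act in small subunit processing, in the U3 particle and on the free large subunit, had -0.41 ± 0.12, -0.43 ± 0.15 and -0.27 ± 0.10 (SE). All 3 overlapped between groups, with KO 2 inside the WT range. Of 15 genes of the RNA polymerase I machinery 12 were below 0, with a median of -0.09, and 1 was higher and 3 lower at that level, against the same 10.5% and 13.6% of all genes. Znrd1, a polymerase subunit, had -0.46 ± 0.12 and Tcof1, the treacle gene, -0.56 ± 0.15 (SE; limma adjusted p = 0.112 for both). Neither overlapped between groups, and the other probe of Tcof1 gave -0.58. Ubtf, the gene of the upstream binding factor, had 1.34 ± 0.42 (SE) at its brightest probe and -0.21 at the other, so its probes went opposite ways.

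Regulators of ribosome production lay on both sides, with 8 of 16 above 0, a median of 0.05, and 5 higher and 3 lower at an unadjusted p under 0.05, against 10.5% and 13.6% of all genes. Larp1, which binds terminal oligopyrimidine mRNAs, had 0.51 ± 0.11 (SE; limma adjusted p = 0.104) at its brightest probe and -0.29 at the other. Of the others among the 5 higher, Rps6kb1 had 0.45 at its brightest probe, and 0.22 and -0.19 at its other probes. Mxd1 had 0.24 at its brightest probe and -0.06 at the other. Both were outside the naming rule and chosen after their values were seen. Trp53 (NM_011640), which encodes p53, had log2 ratios of 0.01, 0.61, -0.27 and -0.33 on KO 1 to KO 4, and 0.73, 0.83, 0.72 and 0.78 on WT 1 to WT 4. KO 2 was nearest to WT, and the difference was -0.76 ± 0.19 (SE; limma adjusted p = 0.112), from 1 probe. Eif4ebp1, an inhibitor of cap-dependent translation, had -0.34 ± 0.10 (SE; limma adjusted p = 0.117), and its groups did not overlap.

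Markers of other cell types varied between the same arrays. All 10 macrophage and leukocyte markers had negative differences, with a list median of -0.51, -0.22, -0.37 and -0.38 on KO 1 to KO 4, and 0.35, -0.16, 0.11 and -0.46 on WT 1 to WT 4. The list medians overlapped on WT 4. Of the 10 markers 4 were apart with KO lower (S100a8, S100a9, Coro1a and Lyz2), where 7.68% of all genes were, and 0 had an adjusted p under 0.05. Nephron progenitor and stromal markers were highest among the KO arrays on KO 2, at 0.08 and 0.33, the array on which the ribosomal protein genes were also highest. On the other KO arrays these lists lay between -1.06 and -0.36 and between -0.93 and -0.13. On WT 1 to WT 4 the nephron progenitor list was at 0.57, 0.95, -0.67 and -0.59, and the stromal list at 0.57, 0.35, -0.71 and 0.14. The ureteric bud markers had a median of 0.03, -0.20, -0.09 and -0.34 on KO 1 to KO 4, and between -0.09 and 0.06 on the WT arrays. Tubule and podocyte markers were at -0.64, -0.18, 0.62 and 0.33 on KO 1 to KO 4, and between -0.50 and 0.11 on WT. Endothelial markers lay between 0.13 and 0.26 on KO, highest on KO 2, and between -0.59 and 1.22 on WT. Erythroid markers lay between -0.07 and 0.40 on KO, also highest on KO 2, and between -2.89 and 1.70 on WT. The part of these cell types in the values of the ribosomal protein genes was not tested.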

How the data were processed

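Intensity values of each spot on 8 Agilent 2-colour arrays were taken from the authors' deposited scanner files. Version 10.7.3.1 of Agilent Feature Extraction is named in the submitters' processing notes. Those files give, too, the log10 of Cy5 over Cy3, background-subtracted and dye-normalised by that software per the file headers, and log10 values of the same kind stand in the value table that the authors deposited. The array annotation is for mm9. Cy5 held the sample and Cy3 the RNA of WT replicate 3, per the labels, with no dye swap.

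Median intensities of 62976 spots per array were corrected with normexp (offset 50), and log2 ratios were normalised by loess within arrays, with control spots at weight 0 (limma 3.58.1, R 4.3.3, version 1.17.8 of data.table, jsonlite 2.0.0). Spots that the scanner software marked as outlying were left out and spots of a probe averaged. Probes needed Cy5 well above background on at least 4 of 8 arrays and at least 3 values in each group. Of 37850 names 21717 matched the RefSeq gene list (GRCm38.p6), and the brightest probe stood for a gene. KO (4 arrays) and WT (4 arrays) were set against each other by lmFit and eBayes of limma in 2-sided tests, and p-values were adjusted by Benjamini-Hochberg over 23343 genes at a threshold of 0.05. The labels call the samples biological replicates without naming animals, so the p-values reflect only the spread between those samples, which may be technical, and the number of arrays limits the precision.

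The members, the gene lists and the tests were chosen with earlier results of these data known. Genes named were members past the threshold (0), the 4 most positive and 4 most negative differences of each subunit, members chosen by role, Dot1l, and from each list of related genes up to 3 with the smallest p. This takes 39 tested members, some of which are not reported here. Alternatives covered background correction, normalisation, filters, variance models, the probe used, a block for the replicate number, and leaving out single arrays. Figures were drawn with matplotlib 3.10.9 with results read by pandas 2.3.3 in Python 3.11.15.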

Additional observations from a re-analysis of the deposited data

Results flagged for a closer look

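The values of the named genes, the medians of the large and small subunit genes and the difference of those medians were checked for a single array far from the others of its group of 4, in 84 such groups. Chance flags about 1 in 20 groups, and 3 stood out here. Rplp1 was highest on KO 2, at a log2 ratio of 0.15, with the next KO array at -0.21. Rpl5 was lowest on KO 3, at -0.21, with the next KO array at 0.25. Rpl5 was also lowest on WT 3, at -0.0483, with the next WT array at 0.18.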

How the results depend on the processing

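With all 8 arrays limma called 2 of all genes and 0 ribosomal protein genes, and 6 ribosomal protein genes did not overlap between groups. The count over all genes was 1 with a normexp offset of 0, without background subtraction, with scaling between arrays and with the mean over probes. It was 4 with the scanner software's ratio, the series value table or no filter on dim probes, 11 with an intensity trend, 4353 with array weights, 0 with median centring, and 0 with Cy5 alone. It ranged from 1 to 4950 when 1 array was left out, the highest without KO 2, and was 5505 without KO 2 and KO 3 (added after seeing the data). Ribosomal protein genes called numbered 5 with array weights, 0 to 10 with 1 array left out (10 without KO 2), 7 without KO 2 and KO 3, and 0 under the other settings. Those not overlapping numbered 55 with median centring (23.4% of all genes tested did not overlap there), 2 with Cy5 alone (12.9%), 3 with the mean over probes (10.6%), 6 to 26 with 1 array left out (26 without KO 2, with 30.4%, and 11 without KO 3, with 15.0%) and 39 without KO 2 and KO 3 (47.1%). Median centring put the large and small subunit medians at -0.90 and -0.91, and the cause was not tested. Leaving out 1 array gave large subunit medians from -0.08 to 5.52e-04, small subunit medians from -0.13 to 0.0048, and large minus small medians from -0.00429 to 0.05. Leaving out KO 3 turned all 3 signs. With group means removed, same-numbered arrays correlated at -0.24, 0.05, 0.11 and -0.03. These values gave no sign that replicate numbers pair the samples, but so few arrays cannot exclude it. With the replicate number as a block limma called 0 genes. The number of arrays limits what differences can be seen.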
